A study of Bos taurus with 6 samples.

Results

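The insulin-like growth factor (IGF) system of bovine granulosa cells is described here through 10 of the 15216 named genes on the array. These are the ligands IGF1 and IGF2, the receptors IGF1R, IGF2R and INSR, the binding proteins IGFBP2, IGFBP3, IGFBP4 and IGFBP5, and the protease PAPPA. A probe was taken as a member when its gene symbol in the platform annotation was one of these names, which gave 12 of the 43794 gene probes on the array. IGF2 has 3 probes and each of the other genes has 1. The rule uses gene names and no measured value.

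The samples were granulosa cells of dairy cows after calving. The vitamin group was injected into muscle with 320 mg of folic acid and 10 mg of vitamin B12, and the saline group with 0.9% saline. Dosing ran from 3 weeks before calving until day 57 ± 2 after it. Both groups received prostaglandin F2 alpha, and cells were taken from follicles 12 mm wide or more at 66 ± 2 h after its second dose, on day 57 ± 3 or else on day 71 ± 3. On each of 6 two-colour arrays, RNA of vitamin-treated cows was in one dye and RNA of saline-treated cows in the other. The series design gives 3 biological replicates, each on 2 dye-swapped arrays. Whether a replicate is 1 cow or a pool is not stated in the labels, so the spread between replicates is that of these 3 RNA pairs. The labels do not name the pairs of arrays, which were taken from the correlation of their ratios. Likeness within a replicate thus rests in part on this choice. The arrays of replicate 1, so defined, shared the first slide, and those of replicates 2 and 3 the second.

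IGF1 and IGF2 act on granulosa cells through the IGF1 receptor, a tyrosine kinase close in structure to the insulin receptor, and amplify the response to FSH. The IGF2 receptor binds IGF2 and carries it to lysosomes. Binding proteins hold the ligands away from the receptor. The protease pappalysin (PAPPA) cleaves IGFBP4 and IGFBP5 and so frees the ligand, a step known from dominant follicles of cattle. In the cow, theca cells, which surround the granulosa layer, are a known site of IGF2 expression.

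A reading is the intensity of a probe in one dye on one array. It was called detected when it exceeded the mean + 2 SD of the 153 negative-control spots of that array and dye, a limit that lay between 117 and 288 intensity units. Between 53.1% and 68.7% of gene probes were detected in a dye. Testing required 6 or more detected readings of the 12 of a probe. This held for 9 of the 10 genes, IGFBP2 being the exception. Of granulosa markers, 14 of 15 were tested and 11 were detected in all 12 readings, among them FSHR, INHA and INHBA. FOXL2, detected in 4 of 12 readings, was the marker not tested. The summed level of the 14 on the normalized log2 intensity scale ran from 17.95 to 18.20 in the vitamin group. In the saline group it ran from 16.67 to 17.91.

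With vitamins, IGF2 had the widest difference of the 10 genes, with a mean log2 ratio of 2.41 ± 1.89 (SD, n = 3) for its brightest probe, 5.31-fold higher than with saline. The other 8 genes tested had mean log2 ratios between -0.44 (IGF1R) and 0.26 (IGFBP3). IGFBP5 stood out in another way, with large ratios of opposite sign in replicates 1 and 2. By limma's moderated test with Benjamini-Hochberg adjustment, 0 of the 9 genes passed the threshold of 0.05, and 0 of 26713 probes passed in either direction (0%). At an unadjusted p under 0.05, 1 member was higher with vitamins (IGF2) and 0 were lower, against 2.15% and 2.51% of all probes tested. The median log2 ratio over the 9 genes was 0.00, beside 0.01 over all probes tested; 5 of the 9 were above 0, beside 51.4% of all probes, with IGFBP5 at 0.0005 among them. IGF2 and IGFBP4 were above 0 in all 3 replicates (11.9% of all probes) and 0 members were below 0 in all 3 (11.7%), so that 2 of 9 kept 1 sign, beside 23.6% of all probes. IGF2 alone had a mean log2 ratio of 1 or more (0.831% of all probes), and 0 members had one of -1 or less (0.854%). On all 6 arrays, 1 member (IGF2) lay above 0 (3.87% of all probes) and 0 lay below (4.24%).

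**Figure D1:**
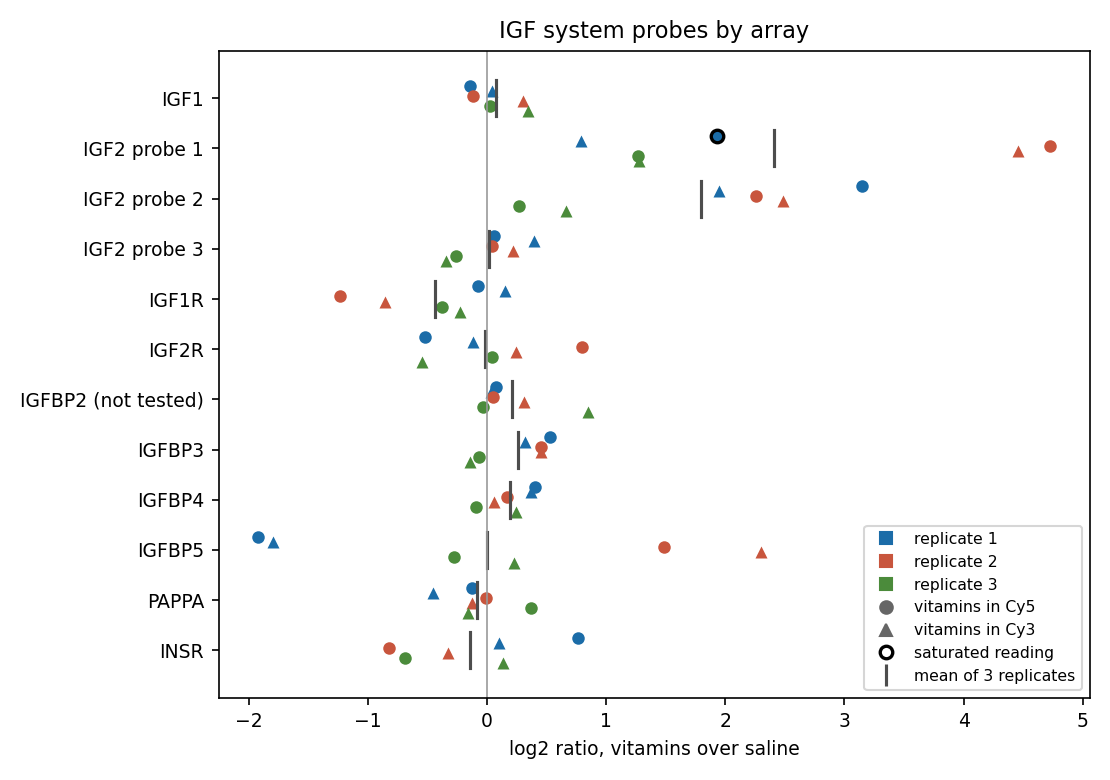
Log2 ratio of vitamins over saline (horizontal axis) of each of the 12 probes on each of the 6 arrays; colour marks the replicate, shape the dye of the vitamin RNA, a black outline the array with a saturated reading, and the bar the mean of 3 replicates. IGF2 probes 1 and 2 lie above 0 on all 6 arrays, with means of 2.41 and 1.80, and IGFBP5 lies at -1.86 in replicate 1 and 1.89 in replicate 2.

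IGF2, the fetal growth factor that is also made in the ovary, was measured by 3 probes, numbered here by brightness. At probe 1 (EMBV3_37311), raw intensities with vitamins were at the scanner maximum on array 1 and 63396 on array 2 in replicate 1, 7096 and 8725 in replicate 2, and 2333 and 2896 in replicate 3. With saline they were 18899 and 41405 in replicate 1, 304 and 347 in replicate 2, and 1185 and 968 in replicate 3. The vitamin reading was the higher one on all 6 arrays. The reading at the maximum, in Cy5, was saturated, so the ratio of that array is open upward. It was the 1 saturated reading of the 12 probes.

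After normalization, IGF2 probe 1 had log2 ratios of 1.93 and 0.79 on the arrays of replicate 1, 4.73 and 4.45 on those of replicate 2, and 1.26 and 1.28 on those of replicate 3. The replicate means were 1.36, 4.59 and 1.27, so replicate 2 was far above replicate 3. The mean of replicate 1 holds the saturated reading and is a lower bound, so its distance from the other replicates was not measured. The unadjusted 95% interval of the mean ran from 0.36 to 4.45 (limma, unadjusted p = 0.0302, adjusted p = 0.9998). By slide, the mean log2 ratio of this probe was 1.36 for replicate 1 and 2.93 for replicates 2 and 3, and a fit that blocked on slide gave 2.15. Without replicate 2 the mean log2 ratio was 1.32. Without the saturated reading, where array 2 alone gives replicate 1, the mean was 2.22. The vitamin reading on array 2, at 63396, was itself just under the scanner maximum. With array 2 alone, replicate 1 also has no dye swap.

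The level of IGF2 differed more between replicates than between the groups. At probe 1 the normalized log2 intensity averaged 13.43 ± 2.41 with vitamins and 11.02 ± 3.31 with saline (SD, n = 3 each). With vitamins it was 16.07, 12.89 and 11.33 in replicates 1, 2 and 3, and with saline 14.71, 8.30 and 10.06. The groups overlapped, since saline replicate 1 lay above vitamin replicates 2 and 3. Replicate 1 was the highest in both groups. In the saline group replicate 2 was the lowest, and in the vitamin group replicate 3.

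At IGF2 probe 2 (EMBV3_41040), raw intensities with vitamins were 21378 and 14939 in replicate 1, 467 and 726 in replicate 2, and 141 and 189 in replicate 3. With saline they were 3081 and 4042 in replicate 1, 69 and 92 in replicate 2, and 215 and 109 in replicate 3. All 6 vitamin readings were detected, against 3 of 6 saline readings, with neither saline reading of replicate 2 among them. The replicate log2 ratios were 2.55, 2.37 and 0.47, with a mean of 1.80 ± 1.15 (SD, n = 3; limma, unadjusted p = 0.017, adjusted p = 0.9998), and the ratio was above 0 on all 6 arrays after normalization, although on array 5 the raw vitamin reading was the lower one. Probes 1 and 2 thus had the same sign on every array. Since both saline readings of replicate 2 were below the control limit at probe 2, its ratio of 2.37 is a bound and not a measured size, as is that of replicate 1 at probe 1, which holds the saturated reading.

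IGF2 probe 3 (EMBV3_16283) did not follow the others. Its 12 raw intensities lay between 139 and 380, and 5 of 6 vitamin and 6 of 6 saline readings were detected, most of them close to the negative-control limit. Its replicate log2 ratios were 0.23, 0.13 and -0.30, with a mean of 0.018 ± 0.28 (SD, n = 3; limma, adjusted p = 0.9998). Subtracting its ratio from that of probe 1 left 1.13, 4.46 and 1.57 in replicates 1, 2 and 3. The same difference for probe 2 was 2.32, 2.24 and 0.77. Which transcripts each probe matches was not tested, and the probe sequences are not used here. INS, the neighbour of IGF2 in the RefSeq gene table, was detected in 0 of 12 readings.

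**Figure D2:**
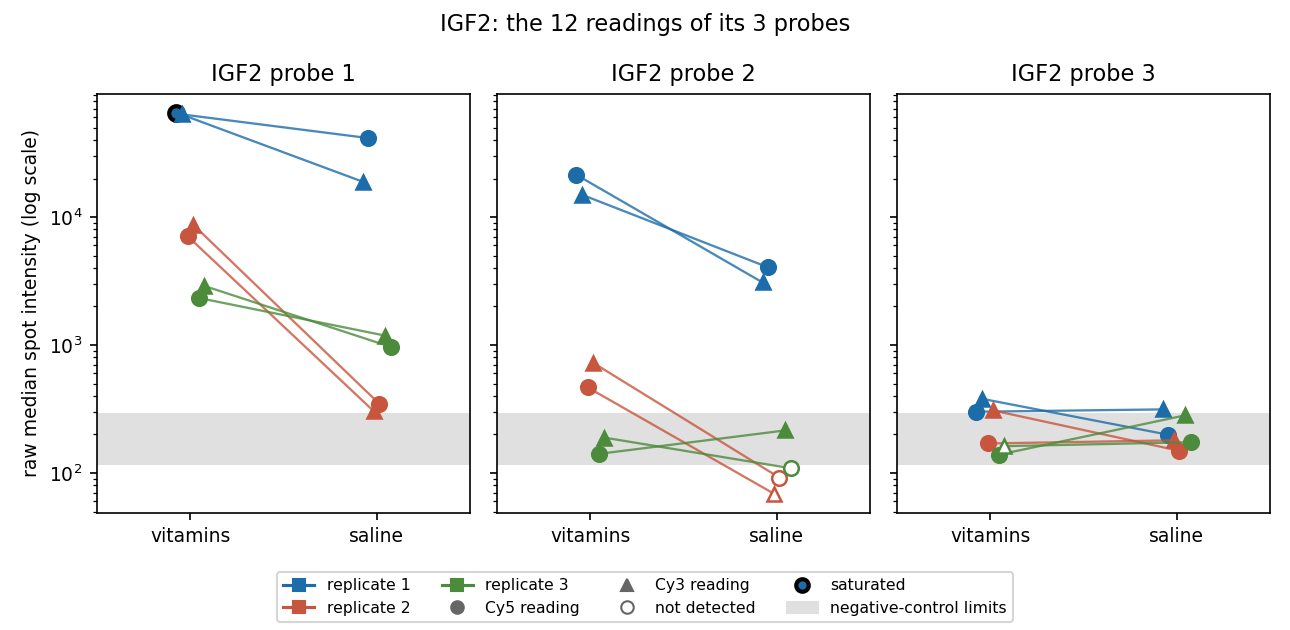
Raw median spot intensity on a log scale (vertical axis) of the 3 IGF2 probes, vitamins left and saline right; a line joins the 2 readings of an array, colour marks the replicate, open symbols are readings not detected, a black outline is the saturated reading, and the grey band spans the negative-control limits of the 12 array channels. All 6 lines of probe 1 are higher at vitamins than at saline, 11 of the 12 readings of probe 3 are detected, and its readings stay between 139 and 380.

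IGF1, the other ligand, was dim. Its raw intensities ran from 145 to 312 with vitamins and from 145 to 371 with saline, and 4 of 6 readings were detected in each group. The replicate log2 ratios were -0.050, 0.089 and 0.18, with a mean of 0.073 ± 0.12 (SD, n = 3) and a 95% interval from -0.33 to 0.48 (limma, adjusted p = 0.9998). Its normalized log2 intensity was 7.44, 7.51 and 7.88 with vitamins and 7.49, 7.42 and 7.70 with saline in replicates 1, 2 and 3, so the groups overlapped.

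Among the receptors, IGF1R, which carries the signal of both ligands, had the lowest mean. Its normalized log2 intensity was 8.77, 8.53 and 9.06 with vitamins and 8.73, 9.58 and 9.37 with saline in replicates 1, 2 and 3, with all 12 readings detected. The groups overlapped. The replicate log2 ratios were 0.037, -1.05 and -0.31, with a mean of -0.44 ± 0.55 (SD, n = 3) and a 95% interval from -1.14 to 0.26 (limma, unadjusted p = 0.162, adjusted p = 0.9998). On both arrays of replicate 2 (-1.24 and -0.86) and of replicate 3 (-0.38 and -0.23) it was lower with vitamins, and on the arrays of replicate 1 it stood at -0.08 and 0.15. The mean on the second slide was -0.68. Without replicate 2 it was -0.13.

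INSR, the insulin receptor, was detected in all 12 readings. Its level was 10.27, 10.58 and 11.73 with vitamins and 9.84, 11.15 and 12.01 with saline in replicates 1, 2 and 3. Replicate 3 was thus the highest and replicate 1 the lowest in both groups, and the range over replicates was 1.46 with vitamins and 2.17 with saline. The log2 ratios were 0.43, -0.57 and -0.28, with a mean of -0.14 ± 0.52 (SD, n = 3; limma, adjusted p = 0.9998). The 2 arrays of replicate 3 stood on opposite sides of 0, at -0.69 and 0.13. Without replicate 2 the mean was 0.076.

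IGF2R, the lysosomal receptor that removes IGF2, was also detected in every reading. Its level was 10.31, 10.16 and 8.86 with vitamins and 10.63, 9.64 and 9.11 with saline in replicates 1, 2 and 3. Replicate 3 was the lowest in both groups, the reverse of INSR, and replicate 1 the highest in both. The log2 ratios were -0.32, 0.52 and -0.25, with a mean of -0.018 ± 0.47 (SD, n = 3; limma, adjusted p = 0.9998). Without replicate 1 the mean was 0.13 and without replicate 3 it was 0.10.

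Of the 4 binding proteins, 3 were not detected in all readings of either group. IGFBP5, which binds IGFs in the extracellular matrix, had raw intensities with vitamins of 327 and 428 in replicate 1, 424 and 716 in replicate 2, and 109 and 154 in replicate 3. With saline they were 1723 and 1120 in replicate 1, 154 and 107 in replicate 2, and 224 and 122 in replicate 3. Saline replicate 1 was the highest, and the 4 vitamin readings of replicates 1 and 2 were detected, as were 3 saline readings.

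The log2 ratios of IGFBP5 were -1.92 and -1.80 on the arrays of replicate 1, 1.49 and 2.30 on those of replicate 2, and -0.28 and 0.23 on those of replicate 3. Both dye orientations thus gave the same sign within replicates 1 and 2, and these replicates had opposite signs, with means of -1.86 and 1.89. Neither saline reading of replicate 2 was detected, so 1.89 is a lower bound and not a measured size. The mean of all 3, which rests on it, was 0.00 ± 1.88 (SD, n = 3), with a 95% interval from -2.03 to 2.03 (limma, adjusted p = 0.9999). Without replicate 1, and so on the second slide alone, the mean was 0.93, and without replicate 2 it was -0.94. Of all probes tested, 0.693% had opposite signs in these 2 replicates with each ratio over 1.5 in size, a limit chosen after the values of IGFBP5 were seen.

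IGFBP4, a binding protein that PAPPA cleaves, gave 6 detected readings of 6 with vitamins and 5 of 6 with saline. Its level was 7.77, 8.39 and 8.04 with vitamins and 7.39, 8.28 and 7.97 with saline in replicates 1, 2 and 3. It was slightly higher with vitamins in each replicate, by 0.38, 0.11 and 0.075 on the log2 scale, with a mean of 0.19 ± 0.17 (SD, n = 3) and a 95% interval from -0.23 to 0.61 (limma, unadjusted p = 0.288, adjusted p = 0.9998). The ratio was above 0 on 5 of 6 arrays. The groups overlapped, and the replicates differed more than the groups.

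IGFBP3, the main carrier of IGFs in blood, had 4 detected readings of 6 with vitamins and 3 of 6 with saline. All 4 readings of replicate 1 were detected, with raw intensities of 389 and 494 with vitamins and 312 and 302 with saline. The log2 ratios were 0.42, 0.45 and -0.10, with a mean of 0.26 ± 0.31 (SD, n = 3; limma, adjusted p = 0.9998). Its normalized log2 intensity was 8.44, 7.66 and 6.995 with vitamins and 8.02, 7.20 and 7.10 with saline in replicates 1, 2 and 3, so the groups overlapped. In replicate 2 both saline readings were below the control limit, and in replicate 3 both vitamin readings were.

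IGFBP2, another binding protein, had 3 detected readings of 6 with vitamins and 1 of 6 with saline, and was not tested. Its raw intensities ran from 120 to 276 with vitamins and from 112 to 220 with saline. Its mean log2 ratio of 0.21 was 0.029 with vitamins in Cy5, 0.40 with vitamins in Cy3 and 0.028 in the authors' deposited ratios. Its levels did not overlap, at 7.29 to 7.58 with vitamins and 7.13 to 7.24 with saline. Over the probes tested, which leave IGFBP2 out, groups did not overlap for 5.94%, and for 0 of the 9 members tested. With 4 of 12 readings detected, these levels are mostly not well above background.

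PAPPA, the protease, was detected in 5 of 6 readings of each group, at raw intensities from 157 to 283 with vitamins and from 166 to 260 with saline. Its log2 ratios were -0.29, -0.068 and 0.11, with a mean of -0.084 ± 0.20 (SD, n = 3) and a 95% interval from -0.52 to 0.35 (limma, adjusted p = 0.9998). Neither reading of array 2 was detected. Its normalized log2 intensity ran from 7.17 to 7.72 with vitamins and from 7.47 to 7.75 with saline, so the groups overlapped.

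**Figure D3:**
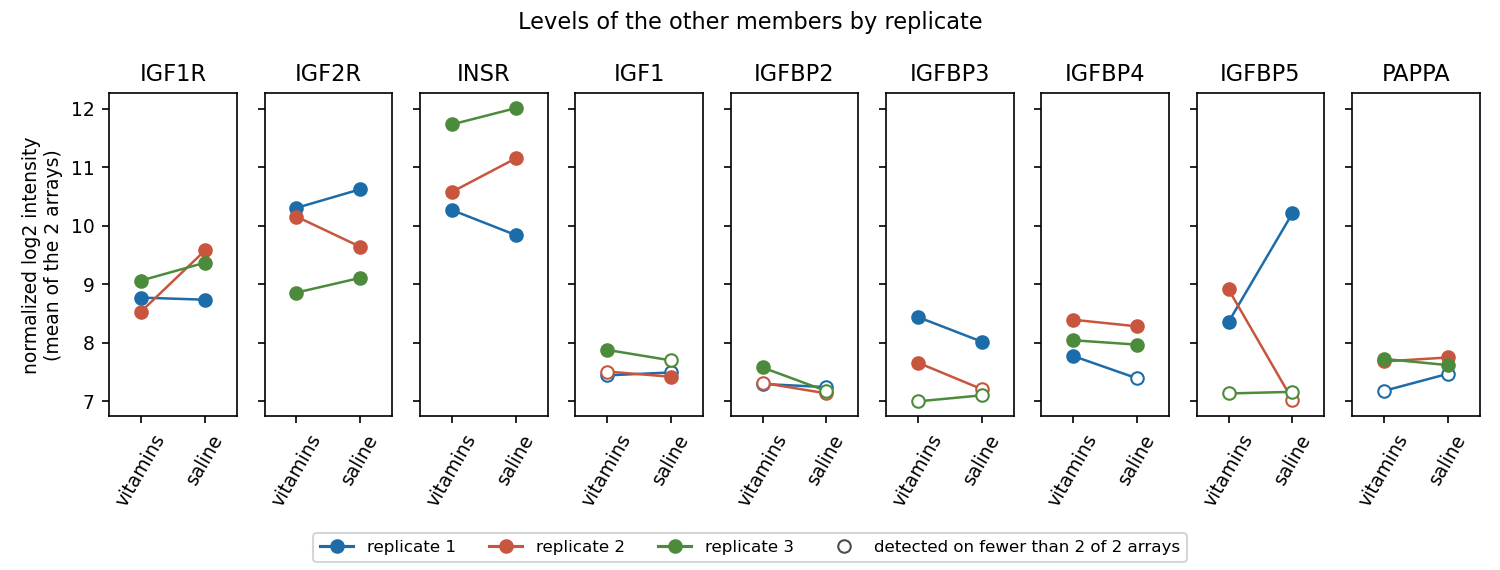
Normalized log2 intensity (vertical axis, mean of both arrays of a replicate) of the 9 genes other than IGF2, vitamins left and saline right; a line joins both groups of a replicate and open symbols mark values detected on fewer than both arrays. Levels of different genes come from different probes and cannot be set against each other. INSR, IGF2R, IGFBP3 and IGFBP4 each have the same order of replicates in both groups, and the IGFBP5 lines of replicates 1 and 2 cross.

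Markers of other cell types also differed between replicates, and their values stand beside those of IGF2 and IGFBP5 here. The leukocyte and macrophage list (17 of 22 genes tested) had median log2 ratios of -3.76, 1.26 and -0.09 in replicates 1, 2 and 3. Its summed level was 12.52, 13.16 and 12.78 with vitamins and 16.34, 11.53 and 12.53 with saline. The saline sample of replicate 1 was the highest, as it was for IGFBP5. The genes of this list did not all follow its median. PTPRC, detected in all 12 readings, had log2 ratios of -0.14, 0.40 and -0.09. FCER1G, MS4A1, S100A8 and S100A9 were below 0 in replicate 2, where the median was above 0. ITGAM of this list was detected in 0 of 12 readings. IGFBP5 had log2 ratios of -1.86, 1.89 and -0.03.

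The epithelial list (4 of 5 genes tested) had medians of -2.18, 4.63 and 0.57, with summed levels of 15.66, 15.89 and 10.82 with vitamins and 16.04, 9.85 and 10.47 with saline. Both samples of replicate 1 and the vitamin sample of replicate 2 were high. At IGF2 probe 1 these 3 samples were likewise the highest, at 16.07, 12.89 and, for saline replicate 1, 14.71. A summed level adds linear intensities, so the brightest genes of a list weigh most in it. In replicate 1 the log2 ratios were -0.19 for KRT8, -1.14 for KRT18, -3.25 for KRT19 and -3.215 for EPCAM. IGF2 probes 1 and 2 were above 0 in that replicate. CDH1 of that list was detected in 1 of 12 readings.

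The theca list (12 of 15 genes tested), which also holds genes of stroma, had medians of 0.27, 0.29 and 0.04. Its summed level was 14.87, 14.34 and 13.30 with vitamins and 15.10, 13.67 and 14.555 with saline in replicates 1, 2 and 3. Within each group, this was the order of replicates seen at IGF2 probe 1. Between the groups it differed from IGF2, since the sum was lower with vitamins in replicates 1 and 3. The mean log2 ratios of its genes ran from -1.39 (COL1A2, a collagen chain) to 1.40 (LHCGR, the LH receptor, which granulosa cells of large follicles also express), with 6 above 0 and 6 below. CYP17A1, the androgen-forming enzyme of theca, lay within that range at 0.11 ± 0.082 (SD, n = 3) and was detected in 9 of 12 readings. The granulosa list had medians of 0.79, 0.02 and 0.83. Its genes spread widely around them in replicate 1, from -4.795 (GATM) to 4.37 (INHA). GATM had 4.00 in replicate 2. The endothelial list (3 of 8 tested) had medians of 0.12, -0.016 and -0.21. Its summed levels ran from 8.99 to 9.24 with vitamins and from 9.09 to 9.36 with saline, and PECAM1 was detected in 0 of 12 readings. The part of these cell types in the ratios of IGF2 and IGFBP5 was not tested. In such samples, fewer cells of a type and less RNA per cell cannot be told apart.

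**Figure D4:**
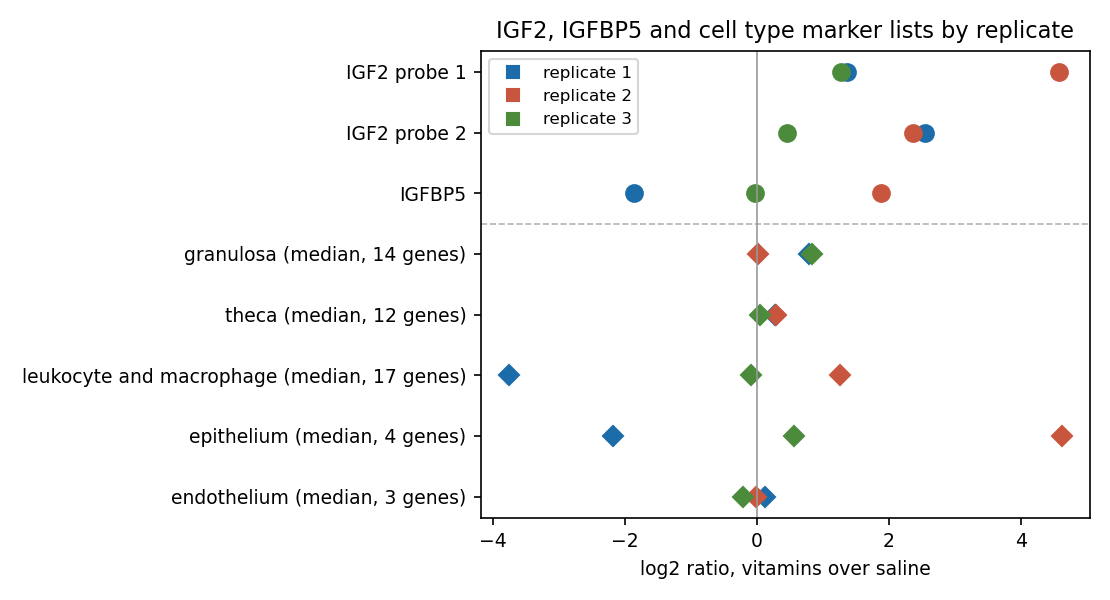
Log2 ratio of vitamins over saline (horizontal axis) by replicate for IGF2 probes 1 and 2 and IGFBP5 (circles) and the median of each cell type marker list (diamonds). The leukocyte and macrophage median is -3.76 in replicate 1 and 1.26 in replicate 2, and IGFBP5 is -1.86 and 1.89 there; IGF2 is above 0 in each replicate.

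The rest of the pathway was read from a list of 54 genes of IGF transport, proteolysis and signalling, of which 45 had a probe under that symbol and 35 were tested. Of these, 0 passed in either direction by limma's adjusted test, 19 were above 0 and 16 below (51.4% of all probes tested were above 0), with a median log2 ratio of 0.03 (0.01 over all probes). Of the 35, 4 were above 0 in all 3 replicates and 1 was below in all 3, beside 11.9% and 11.7% of all probes. The 4, named here after their values were seen apart from IGFBP7 and STC1, were IGFBP7, STC1, TSC2 (0.57 ± 0.12, SD, n = 3) and IGF2BP3 (0.13 at its brightest probe, detected in 6 of 12 readings, and -0.08 at another), with FOXO3 the 1 gene below 0 in all 3.

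Among further carriers and their regulators, IGFBP7, a low-affinity binding protein of the matrix, had log2 ratios of 0.76, 0.41 and 1.03, with a mean of 0.73 ± 0.31 (SD, n = 3; limma, unadjusted p = 0.015, adjusted p = 0.9881). STC1, a stanniocalcin, a family that inhibits pappalysins, stood at 0.32, 1.72 and 2.27, with a mean of 1.44 ± 1.00 (SD, n = 3; limma, unadjusted p = 0.0237, adjusted p = 0.9998). Both were detected in all 12 readings. HTRA1, a serine protease that cleaves binding proteins, had -1.81, 0.95 and 0.74 and so had opposite signs in different replicates. IGFBP6 was at 0.15 ± 0.30 and PAPPA2, a relative of PAPPA, at -0.10 ± 0.38 (SD, n = 3 each). IGFBP1 and the carrier subunit IGFALS were detected in 0 of 12 readings and STC2 in 5.

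Downstream, the growth hormone receptor GHR had a mean log2 ratio of 0.06 ± 0.30, the kinase AKT1 of 0.09 ± 0.26 and the transcription factor FOXO1, which AKT holds out of the nucleus, of -0.07 ± 0.22 (SD, n = 3 each). The adaptor IRS1 was detected in 0 of 12 readings. IRS2 and GRB10 had no probe under these symbols and were not analysed here.

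By pattern over the 6 arrays, the named genes nearest to each member were sought among 7111 genes detected in all readings, by the root mean square difference of log2 ratios. The nearest to IGF2 were TRIB1 (1.05) and LOC777594 (1.21), which are not close: TRIB1 had ratios of 0.00, 4.11 and 0.43. For IGF1R they were SCAMP1 (0.14) and RIMKLB (0.15), for IGF2R CHMP4A (0.11) and ORMDL3 (0.19), and for INSR PIGB (0.25) and STAT3 (0.25). With so many candidates and 6 arrays, these are descriptions of likeness.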

How the data were processed

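Total RNA was amplified in 2 rounds and labelled with Cy3 and Cy5, per the labels' protocols. The scanner files hold, per the file headers, the median spot and background intensity of each dye. The authors also deposited log2 ratios; their making was not given in the sources used here. They ran as vitamins over saline (r = 0.861 to 0.962 with the scanner ratios over tested probes; slopes from 0.713 to 0.982; column medians of 0.001, 0.015, -0.018, -0.007, -0.003 and 0.005), with the background correction and any centring or shrinkage unknown, and served as an alternative.

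Intensities were corrected with normexp (offset 50) and normalized by loess within arrays (R 4.3.3, limma 3.58.1), with control spots at weight 0, ignored spots (2 to 71 per array) left out and saturated spots kept. Ratios were turned to vitamins over saline. The labels do not name the dye-swap pairs. Of the ways to match arrays of opposite dye orientation, the one with the largest sum of correlations was used (arrays 1 and 2, 3 and 4, 5 and 6; 2.46 against 0.731 for the next), with the mean of each pair as 1 replicate. Two-sided moderated tests of the 3 ratios against 0 (lmFit, eBayes) were adjusted by Benjamini and Hochberg's method over 26713 probes. Levels are log2 intensities after Aquantile scaling between arrays. The number of arrays limits the precision.

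A gene's value comes from its brightest tested probe. The annotation names 1 gene for 21790 probes, no gene for 22004, and several genes for 0; all 10 members match the RefSeq gene table (ARS-UCD2.0). Members, lists and the rule for named genes (all members, 15 listed pathway genes, the 2 nearest by pattern) were chosen with earlier results of these data known; 1 listed gene is not reported here. The moderated test was also tested on simulated data with the replicate spread of these probes. It recovered 0% of log2 changes of 1, 42% of changes of 2, 70% of 3 and 76% of 4. It also called 5 unchanged probes. The changes were put on randomly drawn probes. The rates are thus not those of IGF2 or IGFBP5, whose SDs over replicates were 1.89 and 1.88. A member that did not pass is therefore not shown to be unchanged.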

Additional observations from a re-analysis of the deposited data

How the results depend on the processing

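Under all 17 alternative fits, 0 members passed limma's adjusted test; these covered background, normalization, filter, saturation, pairing, slide, dye orientation, trend, replicates left out and the authors' deposited log2 ratios. IGF2 kept its direction in each, between 1.32 and 2.98, the lowest without replicate 2. Several fits could not move a member's mean: the pairing, the random block, the trend and the filter on dim probes left IGF2 at 2.41. The second slide alone held the same arrays as the fit without replicate 1. The adjusted p of IGF2 was lowest with crossed pairs (limma, 0.2995). These average an array of replicate 2 with an array of replicate 3, which narrows the spread. With single arrays and the pair as a random block, the adjusted p was 0.327. Probe 3 of IGF2 gave 0.018 and the mean over the IGF2 probes was 1.41. IGF1R, IGFBP3 and IGFBP4 also kept their direction in each fit, though IGF1R was at 0.037 on the first slide alone. With a replicate left out, IGF1R ran from -0.68 to -0.13 (highest without replicate 2), IGFBP3 from 0.16 (without replicate 2) to 0.44 (without replicate 3), IGFBP4 from 0.094 (without replicate 1) to 0.25, and IGF1 from 0.019 (without replicate 3) to 0.13 (without replicate 1). IGF1 was -0.081 where vitamins were in Cy5. IGF2R was 0.075 in the deposited ratios, 0.13 on the second slide, 0.11 with vitamins in Cy5, and from -0.29 to 0.13 with a replicate left out. IGFBP5 was -0.12 with median centring, -0.46 when slide was blocked, -0.24 with vitamins in Cy5, and from -0.94 to 0.93 with a replicate left out. PAPPA was 0.019 on the second slide, 0.078 with vitamins in Cy5, and from -0.18 to 0.019 with a replicate left out. INSR was 0.0018 when slide was blocked and from -0.43 to 0.076 with a replicate left out. The members' median of 0.00 became 0.12 with normexp offset 0, -0.079 over the 4 members detected throughout, 0.13 on the second slide, 0.078 with vitamins in Cy5, 0.21 with vitamins in Cy3, and 0.019 to 0.13 with a replicate left out. Members of 1 sign, 2 of 9, became 4 with median centring and with vitamins in Cy3, and 1 in the deposited ratios and among the 4 members detected throughout. The causes were not tested.

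Dim probes limit IGF1, IGFBP2, IGFBP3, IGFBP5 and PAPPA, each detected in 4 to 10 of 12 readings. With 3 replicates, an exact two-sided sign-flip test cannot go below p = 0.25. The main test is itself paired, since each ratio sets both groups against each other on 1 array; the labels give the arrays no replicate numbers that could serve as a further block.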
